A study of Callithrix jacchus with 4 samples.

Results

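The 40 genes described here encode the degradative machinery of the lysosome and of autophagy: 8 lysosomal proteases, 5 other acid hydrolases, 3 soluble cofactors, 6 lysosomal membrane proteins, 4 subunits of the proton pump, and 14 genes that start, carry out or regulate autophagy. They were chosen by gene symbol, and all 40 were found among the 35108 rows of the count table and among the 16385 genes that passed the filter on low counts. The RNA came from the frontal cortex of adult marmosets (Callithrix jacchus), which are small monkeys of South America, and reads were counted per gene. There were 2 libraries from animals with an APP transgene and 2 from wild-type animals. Per the title of the series, the transgene encodes mutant amyloid precursor protein and is driven by the promoter of human EF1α, a gene active in most cell types, so its expression is not limited to 1 cell type by design. The labels give the transgenic animals as female and give no sex for the wild type, and they do not state that each library is from an animal of its own. P-values therefore measure only the spread between these libraries, which may be technical.

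Lysosomes are acidic organelles in which proteins, lipids, sugars and nucleic acids are broken down by hydrolases that work at low pH. The V-ATPase pumps protons into the lysosome, membrane glycoproteins line it, and carriers move sugars, sterols and amino acids out. Autophagy brings cytoplasmic cargo to it: the kinase ULK1 and the beclin 1 lipid kinase complex start a membrane, the ATG conjugation enzymes attach LC3 and GABARAP proteins to that membrane, and receptors such as p62 hold the cargo. TFEB is a transcription factor that switches on many of these genes. In Alzheimer's disease, swollen neurites around amyloid plaques are filled with lysosomes and autophagic vacuoles, and microglia, the phagocytes of the brain, are rich in lysosomal enzymes.

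Library totals lay between 12657323 and 18932180 counts. All 9 excitatory neuron markers and all 12 astrocyte markers were above 3 counts in each library. This bar is low, and it cannot tell frontal cortex from other brain tissue. Transgenic library 2 stood apart from the other 3. The chi-square per degree of freedom between 2 libraries, taken over genes, was 37.6 to 48.1 for pairs that included it and 7.62 to 12.9 for the other pairs. The summed level of the 12 astrocyte markers was 7696 and 2652 CPM (counts scaled by library size) in transgenic libraries 1 and 2, against 8525 and 7158 CPM in wild-type libraries 1 and 2. Summed oligodendrocyte markers, 12 genes, were at 3303 and 1225 CPM, against 3354 and 2636 CPM in wild type. The 7 oligodendrocyte precursor markers summed to 279 and 137 CPM, against 303 and 231 CPM, and the 10 endothelial markers to 195 and 144 CPM, against 329.9 and 244 CPM in wild type. S100A9, a gene of neutrophils and monocytes, had 3 and 3705 counts in transgenic cortex, against 10 and 8 counts in wild type, and its partner S100A8 had 0 and 585 against 4 and 0. Summed microglial markers, 15 genes, were at 198 and 139 CPM in the transgenic libraries, against 283 and 360 CPM in wild type, with 14 of the 15 lower by sign and none at 0 in any library. The 8 blood and leukocyte markers in the table summed to 10.3 and 265 CPM in transgenic libraries, against 10.96 and 12.99 CPM in wild type. S100A9 alone gave 205 CPM of the sum in transgenic library 2. The T-cell marker CD3E had at most 2 counts in any library. APP itself had a log2 fold change of 0.29 ± 0.22 SE (adjusted p = 0.80 in edgeR), and the source of its counts, marmoset gene or transgene, was not resolved here. The Y-linked gene KDM5D had 0 counts in both transgenic libraries, against 2 and 243 in wild-type libraries 1 and 2, so sex and genotype cannot be told apart in full. The members GLA and LAMP2 are X-linked in human.

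For no member could a difference between transgenic and wild-type cortex be told from the spread between libraries. In edgeR's quasi-likelihood test, adjusted over all genes, the members' adjusted p ranged from 0.789 to 0.994, and 0 of 40 passed 0.05, where 0% of all genes tested passed. DESeq2 called 0 members, where it called 0.293% of all genes, limma-voom called 0 members and 0% of genes, and edgeR with no low-count filter called 0 members and 0.0185% of genes. At an unadjusted p under 0.05, 1 member was higher (ASAH1) and 2 were lower (CTSZ and NPC2), against 3.23% of all genes higher and 2.39% lower. The median log2 fold change was -0.03 over the members, against 0.00 over all genes. By sign, 17 members were higher and 23 lower, and with library totals left unscaled 13 were higher. Of all 16385 genes, 8132 were higher and 8253 lower, and 7064 were higher with library totals unscaled.

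The 2 transgenic libraries lay on the same side of both wild-type libraries in 12 members. In 10 members both were below (CTSA, CTSZ, GLA, GAA, LIPA, NPC2, LAMP2, ULK1, ATG3 and GABARAP), where 19.4% of all genes were so placed. In ASAH1 and ATP6V1A both were above, where the share of all genes was 19.5%. In the remaining 28 members the groups overlapped. The count of members below depended on the processing. It was 14 with library totals unscaled and 11 with a mean count of at least 50. It was 9 with RLE scaling, with DESeq2 and with no low-count filter. The shares of all genes under these settings were not counted. With transgenic library 2 left out, transgenic library 1 lay below both wild-type libraries in 22 members and above both in 4, against 34.4% and 33.8% of all genes. Transgenic library 2 was the highest of the 4 libraries in 19 members and the lowest in 16, against 35.1% and 35.6% of all genes. With library totals left unscaled it was the highest in 14 members, against 4507 of all 16385 genes. With transgenic library 1 left out, it lay above both wild-type libraries in 19 members and below both in 18, against 39.9% and 40.8% of all genes. With wild-type library 1 left out, both transgenic libraries were above the remaining one in 8 members and below it in 16, against 31.2% and 31.5% of all genes. With wild-type library 2 left out these counts were 4 and 11, against 32.3% and 33.3%.

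**Figure D1:**
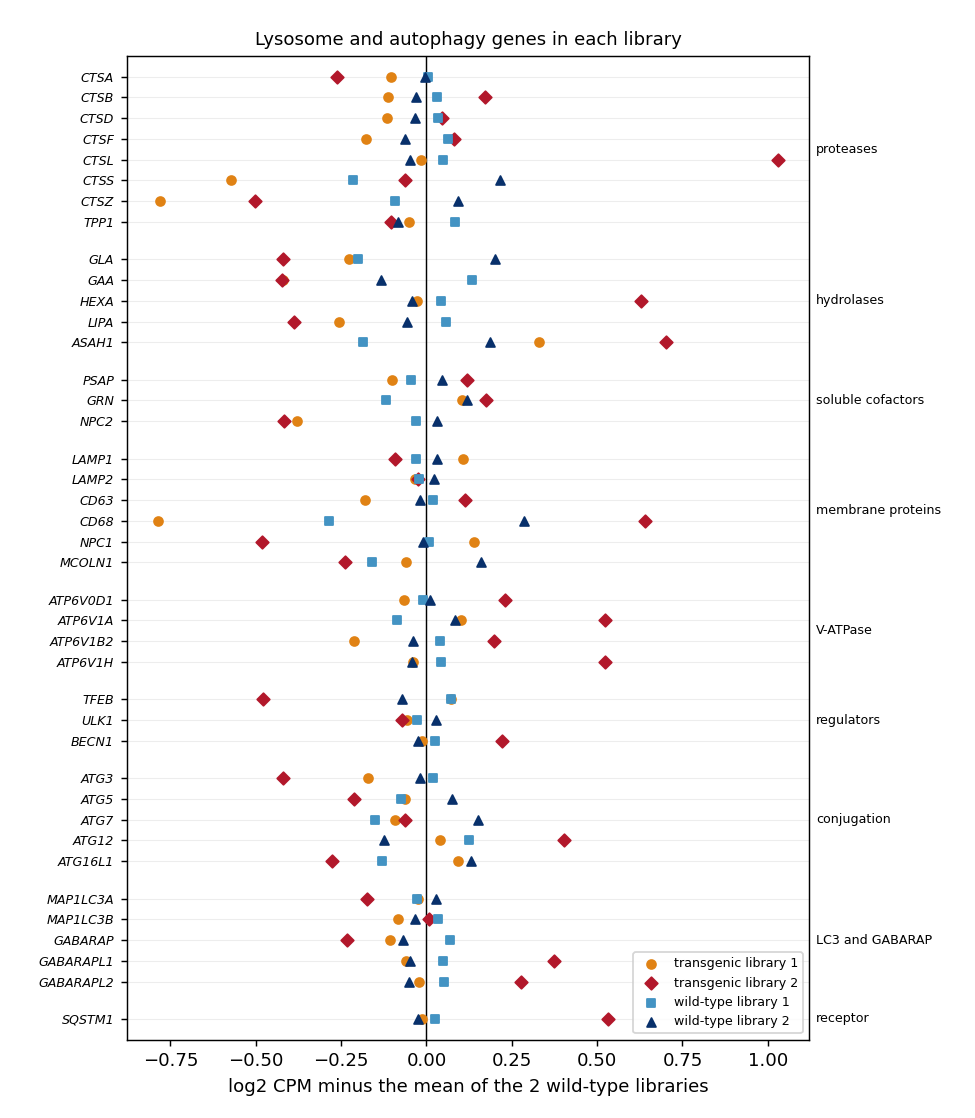
Level of each of the 40 members in each library, as log2 CPM minus the mean of the 2 wild-type libraries, with rows grouped by role. Transgenic library 2 (diamonds) lies farthest to the right for CTSL, ASAH1, CD68 and HEXA, and both transgenic libraries lie to the left of both wild-type libraries for CTSZ, NPC2, GAA and LIPA.

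Of the 8 lysosomal proteases, none passed the test, and their median log2 fold change was -0.06. CTSZ (cathepsin Z, a carboxypeptidase abundant in myeloid cells) had 15.7 and 19.0 CPM in transgenic libraries 1 and 2, against 25.3 and 28.7 CPM in wild-type libraries 1 and 2. Both transgenic libraries were below both wild-type libraries, with a log2 fold change of -0.64 ± 0.19 SE (n = 2 libraries a group; adjusted p = 0.79 in edgeR). Leaving out any 1 library kept the sign, with values between -0.79 and -0.51. CTSZ was lower in both transgenic libraries, as were the summed microglial markers given above. Between the transgenic libraries the order was opposite. CTSZ was higher in transgenic library 2 than in library 1, whereas the microglial sum was lower there (139 against 198 CPM). In bulk tissue, fewer cells of a type and less RNA per cell cannot be told apart, and the part of microglia in this value was not tested.

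CTSS, the cathepsin of antigen-presenting cells and microglia, had 10.7 and 15.2 CPM in transgenic cortex, against 13.7 and 18.5 CPM in wild type. The groups overlapped, and each group spread over more than the difference between them (log2 fold change -0.31 ± 0.28 SE, adjusted p = 0.81). CTSL, a broadly expressed cysteine endopeptidase, had 45.5 and 94.0 CPM in transgenic libraries 1 and 2, against 47.5 and 44.5 CPM in wild type. Transgenic library 1 was within the wild-type range, and transgenic library 2 was 2.07-fold above transgenic library 1. Over both libraries the log2 fold change was 0.60 ± 0.35 SE (adjusted p = 0.79).

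CTSD and CTSB encode abundant aspartic and cysteine proteases of the lysosome. CTSB had 525 and 639.6 CPM in transgenic libraries, against 579.8 and 556 CPM in wild type, so that transgenic library 1 was the lowest and transgenic library 2 the highest of the 4. Its log2 fold change was 0.04 ± 0.16 SE, or -0.01 with library totals unscaled. CTSD had 222 and 248 CPM, against 246 and 235 CPM in wild type, a log2 fold change of -0.03 ± 0.13 SE. CTSA, the carboxypeptidase that protects β-galactosidase and neuraminidase in their complex, had 30.1 and 27.0 CPM, against 32.4 and 32.3 CPM in wild type. Both transgenic libraries were lower, by 0.18 ± 0.16 SE on the log2 scale (adjusted p = 0.81). CTSF had 51.5 and 61.5 CPM, against 60.8 and 55.7 CPM in wild type. TPP1, the tripeptidyl peptidase lost in a childhood form of neuronal ceroid lipofuscinosis, had 66.1 and 63.7 CPM, against 72.6 and 64.6 CPM in wild type.

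The 5 other hydrolases did not move together: 3 were lower in both transgenic libraries, 1 was higher in both and 1 was higher in transgenic library 2. None passed the test. GAA, the acid α-glucosidase that degrades glycogen, had 11.5 CPM in each of the transgenic libraries, against 17.0 and 14.1 CPM in wild type (log2 fold change -0.43 ± 0.21 SE, adjusted p = 0.79). LIPA, the acid lipase that frees cholesterol and fatty acids from lipoprotein lipids, had 21.0 and 19.2 CPM, against 26.2 and 24.1 CPM in wild type (log2 fold change -0.32 ± 0.17 SE, adjusted p = 0.79). GLA, the α-galactosidase A lost in Fabry disease, had 6.5 and 5.7 CPM, against 6.7 and 8.8 CPM in wild type. Transgenic library 1 was just below wild-type library 1, and the lowest of these libraries held 86 counts. The log2 fold change was -0.34 ± 0.28 SE (adjusted p = 0.81), and it was -0.54 without wild-type library 1 and -0.12 without wild-type library 2.

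ASAH1, the acid ceramidase, was the member with the smallest unadjusted p on the higher side. It had 66.2 and 85.7 CPM in transgenic libraries 1 and 2, against 46.3 and 59.9 CPM in wild-type libraries 1 and 2. The groups did not overlap, but the libraries within each group differed as well, and the log2 fold change was 0.52 ± 0.20 SE (n = 2 per group; adjusted p = 0.79). It was 0.31 without transgenic library 2 and 0.34 without wild-type library 1. HEXA, the α chain of β-hexosaminidase, which degrades GM2 ganglioside, had 61.6 and 97.1 CPM in transgenic libraries, against 64.7 and 60.99 CPM in wild type. Again transgenic library 1 was within the wild-type range and transgenic library 2 was above it (log2 fold change 0.34 ± 0.24 SE, adjusted p = 0.80).

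Among the 3 soluble cofactors, NPC2 had the smallest p. NPC2 is the luminal protein that hands cholesterol to the membrane protein NPC1. It had 34.8 and 33.9 CPM in transgenic libraries, against 44.4 and 46.3 CPM in wild type, so that the distance between the groups was larger than the spread within either one. The log2 fold change was -0.40 ± 0.14 SE (n = 2 per group; adjusted p = 0.79), and it lay between -0.43 and -0.37 when any 1 library was left out. PSAP, the precursor of the saposins that present glycolipids to hydrolases, had 1015 and 1181 CPM, against 1055 and 1122 CPM in wild type. Its log2 fold change was 0.01 ± 0.16 SE, or -0.04 with library totals unscaled. GRN, which encodes progranulin, had 33.7 and 35.4 CPM, against 28.9 and 34.1 CPM in wild type, a log2 fold change of 0.14 ± 0.16 SE (adjusted p = 0.85).

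**Figure D2:**
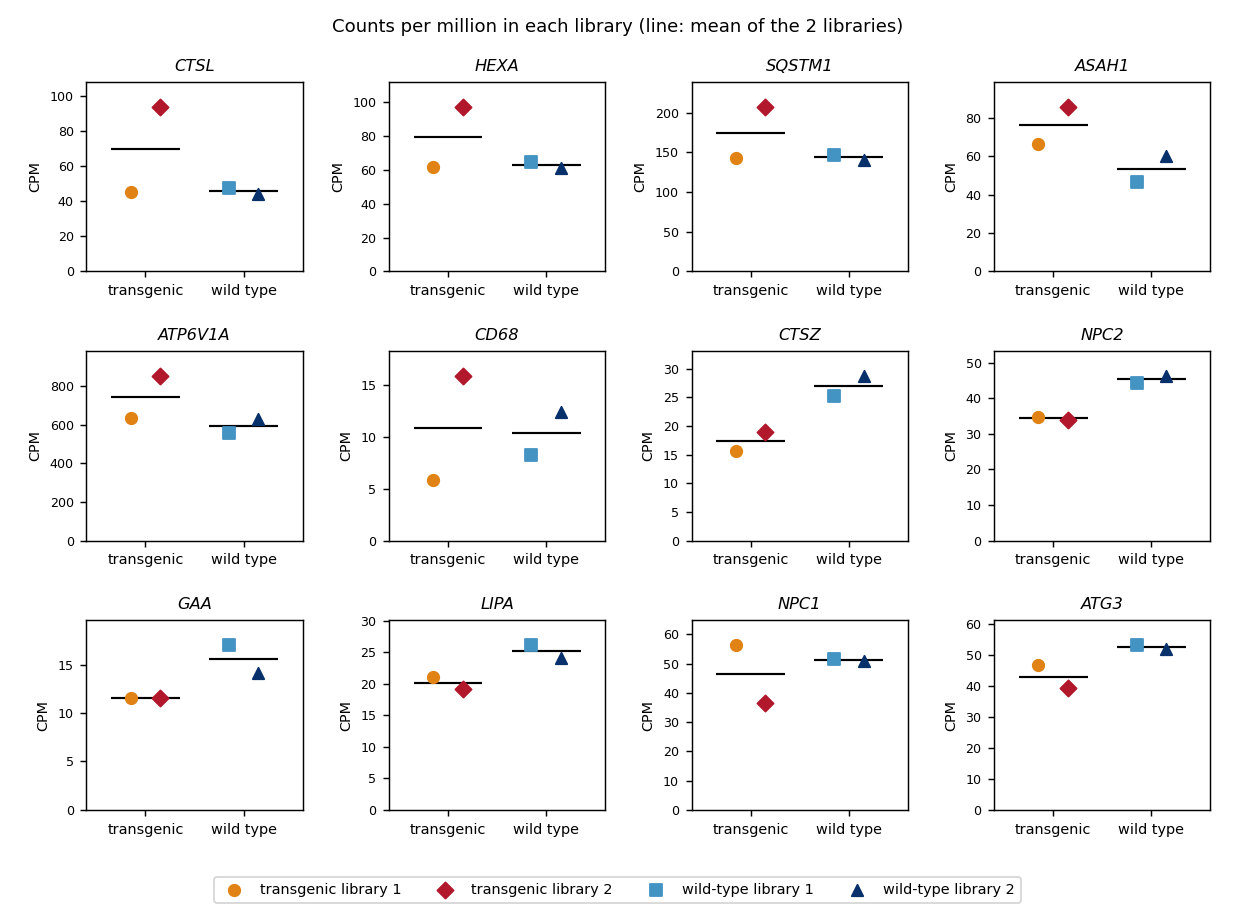
CPM of 12 members in each library, with the 2 transgenic libraries on the left and the 2 wild-type libraries on the right of each panel; lines are group means and each axis starts at 0. CTSL, HEXA and SQSTM1 are high in transgenic library 2 alone (94.0, 97.1 and 208 CPM), whereas NPC2, GAA, LIPA and ATG3 are below both wild-type libraries in both transgenic libraries.

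The lysosomal membrane proteins showed no shared shift, since the median over the 6 genes was -0.03 (log2 fold change) and 0 were called. LAMP1 and LAMP2, the abundant glycoproteins that line the organelle, were at nearly the same level in all libraries. LAMP1 had 164 and 143 CPM in transgenic libraries, against 149 and 155 CPM in wild type, and its log2 fold change was 0.01 ± 0.13 SE, or -0.03 with library totals unscaled. LAMP2 had 156.5 and 157.4 CPM, against 157.5 and 162.6 CPM in wild type, a log2 fold change of -0.03 ± 0.11 SE. LAMP2 is counted among the members whose groups did not overlap, although transgenic library 2 and wild-type library 1 almost coincided.

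CD68, a lysosomal glycoprotein of macrophages and microglia, had the widest spread of the members. Its levels were 5.8 and 15.8 CPM in transgenic libraries 1 and 2, against 8.3 and 12.4 CPM in wild-type libraries 1 and 2. The transgenic libraries were the lowest and the highest of the 4, a 2.73-fold difference at 79 and 286 counts, and the log2 fold change over both was 0.07 ± 0.51 SE (adjusted p = 0.97). Without transgenic library 2 it was -0.83 and without transgenic library 1 it was 0.62. CD68 in transgenic library 2 was above wild type, and the summed microglial markers there were the lowest of the 4 libraries. The 15 microglial markers were split: 8 were lowest in transgenic library 2, 0 were highest there, and 7 were above transgenic library 1. The leukocyte gene PTPRC was highest in transgenic library 2, at 4.9 and 25.4 CPM against 8.1 and 7.4 CPM in wild type. The part of microglia and of infiltrating or blood leukocytes in the CD68 value was not tested.

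NPC1, the membrane carrier that exports cholesterol, lay on opposite sides of wild type in the transgenic libraries, with 56.4 and 36.7 CPM, against 51.5 and 50.9 CPM in wild type. Transgenic library 1 was the highest and transgenic library 2 the lowest of the 4, and the log2 fold change was -0.14 ± 0.23 SE (adjusted p = 0.88). CD63, a tetraspanin of late endosomes, had 44.4 and 54.5 CPM, against 51.0 and 49.7 CPM in wild type. MCOLN1, the lysosomal calcium channel TRPML1, had 25.1 and 22.1 CPM, against 23.4 and 29.2 CPM in wild type.

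The 4 proton pump subunits were all highest in transgenic library 2. This held with scaled and unscaled library totals, where 35.1% of all genes (5749 of 16385) were highest in that library with scaling and 4507 without. None passed the test, and the median log2 fold change was 0.18. ATP6V1A, the catalytic subunit that hydrolyses ATP, had 636 and 853 CPM in transgenic libraries, against 559 and 629 CPM in wild type (log2 fold change 0.33 ± 0.19 SE, adjusted p = 0.79). Transgenic library 1 exceeded wild-type library 2 by little, and leaving out transgenic library 2 gave a log2 fold change of 0.10. ATP6V1H, a regulatory subunit, had 182 and 269 CPM, against 193 and 182 CPM in wild type, with transgenic library 1 inside the wild-type range (log2 fold change 0.27 ± 0.21 SE, adjusted p = 0.80, and -0.04 without transgenic library 2).

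ATP6V1B2, the form of the B subunit used in brain, had 799 and 1064 CPM in transgenic libraries, against 952 and 902 CPM in wild type. Here transgenic library 1 was the lowest, and the fitted difference was 0.01 ± 0.19 SE on the log2 scale, which turned to -0.05 with library totals unscaled. ATP6V0D1, a subunit of the membrane sector, had 244 and 300.3 CPM, against 254 and 258 CPM in wild type, a log2 fold change of 0.09 ± 0.15 SE. Among 13 other V-ATPase and accessory genes tested, 10 were highest in transgenic library 2, or 9 with library totals unscaled, and 0 passed the test. The accessory protein gene ATP6AP2 had 249 and 339 CPM, against 224 and 239 CPM in wild type. Several marker lists moved in transgenic library 2 as well. It was the lowest library for 11 of 12 astrocyte, 10 of 12 oligodendrocyte and 6 of 7 oligodendrocyte precursor markers. It was the highest for 4 of 5 leukocyte markers tested and 7 of 9 inhibitory neuron markers. Of the leukocyte markers, MRC1 was highest by little (1.38 CPM, against 1.31 CPM in wild-type library 2). LYVE1 was lowest there, at 0.44 CPM, against 3.52 CPM in transgenic library 1 and 0.46 and 3.07 CPM in wild type. The inhibitory markers summed to 840 and 945 CPM in transgenic libraries, against 735 and 751 CPM in wild type. The 9 excitatory markers summed to 5874 and 6257 CPM, against 5583 and 6745 CPM in wild type. The part of cell composition in the V-ATPase values was not tested.

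Neither TFEB nor the genes that start autophagy passed the test. TFEB had 8.8 and 6.0 CPM in transgenic libraries, against 8.8 and 8.0 CPM in wild type, from 108 to 120 counts per library. Transgenic library 2 had the lowest TFEB level, and the log2 fold change was -0.19 ± 0.29 SE (adjusted p = 0.88). The part of TFEB in the levels of the other members was not tested. ULK1 had 82.2 and 81.3 CPM, against 83.9 and 87.1 CPM in wild type, so that the 2 transgenic libraries were the lowest by a small margin (log2 fold change -0.06 ± 0.12 SE, adjusted p = 0.89). BECN1, which encodes beclin 1, had 80.3 and 94.5 CPM, against 82.5 and 79.6 CPM in wild type, a log2 fold change of 0.11 ± 0.14 SE (adjusted p = 0.85).

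The 5 conjugation genes had a median log2 fold change of -0.09 with 0 calls. ATG3, the E2-like enzyme that passes LC3 to its lipid, had 46.6 and 39.2 CPM in transgenic libraries, against 53.2 and 51.9 CPM in wild type. Both transgenic libraries were lower, by 0.29 ± 0.15 SE on the log2 scale (adjusted p = 0.79). ATG12, the ubiquitin-like protein joined to ATG5, was the only one of the 5 with a positive sign, at 82.8 and 106 CPM against 87.8 and 73.9 CPM in wild type (log2 fold change 0.23 ± 0.18 SE, adjusted p = 0.80). Its partner ATG5 had 28.2 and 25.5 CPM, against 28.0 and 31.1 CPM in wild type. The E1-like enzyme ATG7 had 17.5 and 17.8 CPM, against 16.8 and 20.7 CPM. ATG16L1, which places the ATG5 and ATG12 conjugate on membranes, had 44.1 and 34.1 CPM, against 37.8 and 45.2 CPM in wild type.

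Of the 5 LC3 and GABARAP genes, 2 were highest and 2 lowest in transgenic library 2. GABARAPL1 had 619.7 and 836 CPM in transgenic libraries, against 668 and 624 CPM in wild type, with transgenic library 1 just below the wild-type range (log2 fold change 0.17 ± 0.19 SE, adjusted p = 0.84). GABARAPL2 was also highest in transgenic library 2, at 140.2 and 173 CPM against 148 and 137 CPM in wild type. GABARAP had 118 and 108 CPM, against 133 and 121 CPM in wild type, and both transgenic libraries were lower (log2 fold change -0.17 ± 0.13 SE, adjusted p = 0.80). MAP1LC3B, the form of LC3 most used as an autophagosome marker, had 208 and 222 CPM, against 226 and 216 CPM in wild type, a log2 fold change of -0.04 ± 0.12 SE. MAP1LC3A had 82.8 and 74.8 CPM, against 82.7 and 86.005 CPM in wild type. Transcript levels of these genes do not measure autophagic flux. SQSTM1, the gene for the cargo receptor p62, had 142 and 208 CPM in transgenic libraries, against 146 and 141 CPM in wild type, the same placement as CTSL and HEXA (log2 fold change 0.29 ± 0.20 SE, adjusted p = 0.80).

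When transgenic library 1 was left out, so that transgenic library 2 alone was set against wild type, edgeR called 3 members, all higher: CTSL (2.04-fold, log2 1.03 ± 0.14 SE, adjusted p = 0.0044), HEXA (1.55-fold, log2 0.63 ± 0.14 SE, adjusted p = 0.030) and SQSTM1 (1.45-fold, log2 0.53 ± 0.14 SE, adjusted p = 0.049). The same fit called 9.92% of all genes, 4.52% as higher and 5.4% as lower, and 0 members as lower. This fit has 1 transgenic sample, which is assumed to vary like the wild-type pair, so it describes that library and not the genotype. ASAH1 (adjusted p = 0.051), ATP6V1H (adjusted p = 0.054) and ATP6V1A (adjusted p = 0.055) came next, with 1.61-fold, 1.43-fold and 1.44-fold higher fitted levels. When transgenic library 2 was left out instead, 0 members were called, against 0.0175% of all genes, and the log2 fold changes were -0.02 for CTSL, -0.03 for HEXA and -0.02 for SQSTM1. The 3 genes were high in the library with high S100A8 and S100A9 and low astrocyte, oligodendrocyte and oligodendrocyte precursor markers. Summed endothelial and microglial markers were below both wild-type libraries in transgenic library 1 as well. The part of these cell types in the 3 values was not tested.

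**Figure D3:**
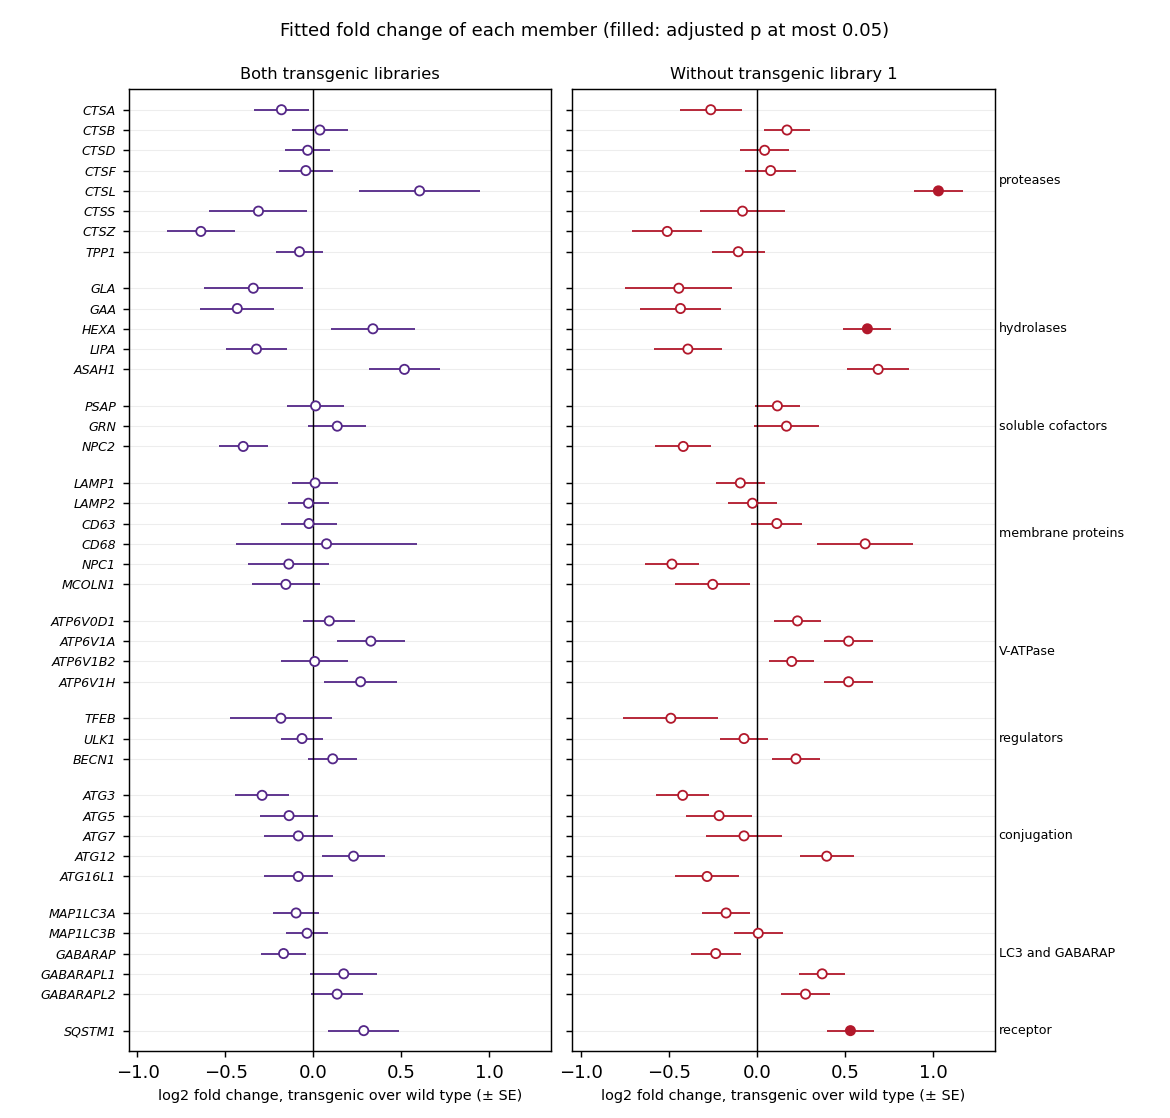
Fitted log2 fold change of each member, transgenic over wild type, with its standard error, from both transgenic libraries (left) and from transgenic library 2 alone against the 2 wild-type libraries (right). Filled points have an adjusted p of at most 0.05; there are 0 on the left and 3 on the right, CTSL, HEXA and SQSTM1.

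Beyond the members, 122 of 127 listed lysosome and autophagy genes were tested, and 0 passed the test adjusted over all genes. Their median log2 fold change was 0.02, with 68 higher and 54 lower by sign, or 54 higher with library totals unscaled. Of all 16385 genes, 8132 were higher by sign, or 7064 unscaled. Of the 122 genes, 28 were higher and 19 lower without overlap between the groups, against 19.5% and 19.4% of all genes. CTSO, a little-studied cysteine cathepsin, had 16.0 and 24.6 CPM in transgenic libraries, against 11.2 and 13.2 CPM in wild type (log2 fold change 0.73 ± 0.27 SE, adjusted p = 0.79). CTSC, the dipeptidyl peptidase that activates granule proteases of leukocytes, had 21.8 and 22.9 CPM, against 11.3 and 18.6 CPM in wild type. FLCN, which encodes folliculin, a regulator of TFEB at the lysosome, had 42.2 and 47.1 CPM, against 34.3 and 37.1 CPM.

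On the lower side, CTNS, the lysosomal cystine exporter, had 6.8 and 5.4 CPM in transgenic libraries, against 9.1 and 10.7 CPM in wild type (log2 fold change -0.71 ± 0.26 SE, adjusted p = 0.79). LAMTOR5, a subunit of the Ragulator complex that anchors mTORC1 signalling to lysosomes, had 16.7 and 17.7 CPM, against 23.9 and 23.1 CPM in wild type. WDR45, a protein of the early autophagic membrane, had 23.9 and 22.8 CPM, against 29.8 and 29.4 CPM. Without transgenic library 1, 5 of these 122 genes were called: CTSO, VPS39, ATP6AP2 and TECPR1 as higher and ATG4C as lower. That is a smaller share than the 9.92% of all genes called in the same fit. Without transgenic library 2 none was called.

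**Figure D4:**
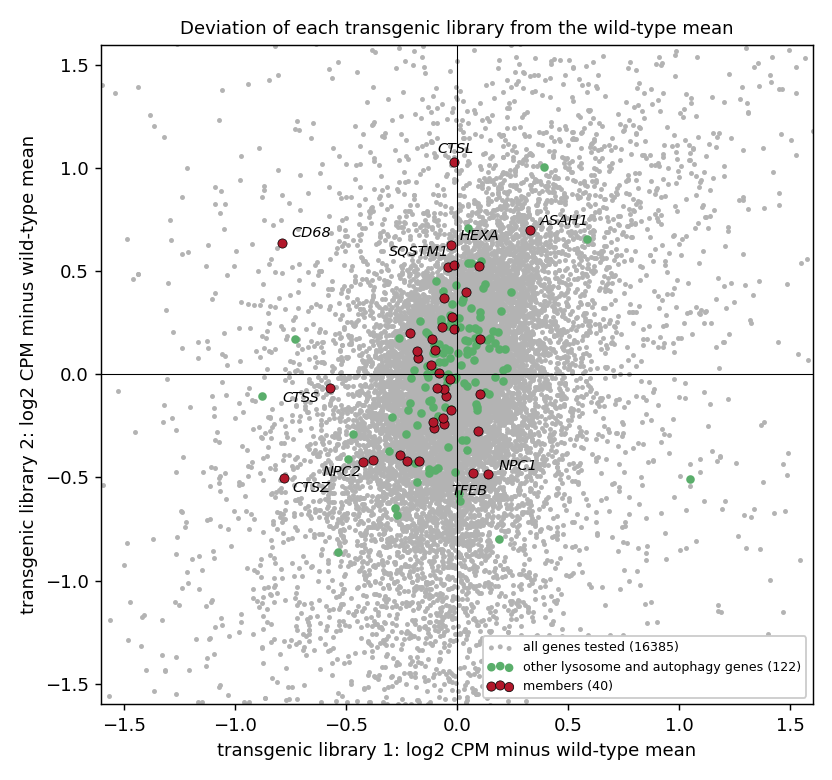
Deviation of transgenic library 1 (horizontal) and transgenic library 2 (vertical) from the wild-type mean, in log2 CPM, for the 40 members, the 122 other lysosome and autophagy genes and all 16385 genes tested, of which 880 lie outside the axes. CTSL, HEXA and SQSTM1 lie near 0 on the horizontal axis and above 0 on the vertical one, CD68 is low in transgenic library 1 and high in transgenic library 2, and CTSZ and NPC2 are below 0 on both; both deviations share the wild-type mean.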

How the data were processed

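The deposited table holds raw read counts by gene symbol with a column for each of the 4 libraries. Per the submitters' processing notes, STAR 2.5.3a, featureCounts 1.5.2 and kallisto 0.46.2 were used, with no roles named. The build, the annotation and the strand setting were not stated in the labels or the table. Reads of overlapping genes may be shared or lost. In another marmoset assembly (calJac240_pri), 17 of the 40 members overlap another annotated gene, 9 of them a protein-coding one.

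Counts were analysed in R 4.3.3 with edgeR 4.0.16: genes were kept by filterByExpr, scaled by TMM and tested by the quasi-likelihood F-test with genotype as the only term (2 residual degrees of freedom), with Benjamini-Hochberg adjustment over all 16385 genes and a threshold of 0.05. The standard error is the log2 fold change divided by the root of F. CPM uses scaled library sizes, is not corrected for gene length and is compared only within a gene; deviations use log2 CPM with a prior count of 2. A count of 3 corresponds to 0.16 to 0.24 CPM. An exact two-sided permutation test of 2 against 2 libraries cannot go below p = 0.33 and was not used. DESeq2 1.42.0 and voom in limma 3.58.1 were alternatives, with other scalings and filters, a replicate block and each library left out.

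The members and lists were chosen with earlier results of these data known. Values in every library are given for 16 members set by rule, for up to 8 further members per direction whose groups did not overlap, and for 4 further members with the largest ratio between the transgenic libraries; the remaining members are given with CPM. Of the other pathway genes, the 3 per direction with the smallest p among those without overlap and with a mean count of at least 20 are named; the 5 genes called without transgenic library 1, ATP6AP2 among them, were named after their values were seen. S100A8, S100A9, PTPRC, CD3E, MRC1 and LYVE1 come from a list of 10 blood and leukocyte markers, 8 of which were in the table.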

Additional observations from a re-analysis of the deposited data

How the results depend on the processing

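The number of genes called was 0, and it was 48 with DESeq2 and 5 with no low-count filter; it ranged from 0 to 1710 when each library was left out, with 1710 without transgenic library 1, 3 without transgenic library 2 and 0 without either wild-type library. The number of members called was 0 under every alternative run except without transgenic library 1, where it was 3, a range of 0 to 3. With 1 transgenic library left out, the other lay above both wild-type libraries in 4 to 19 members, against 33.8% to 39.9% of all genes. It lay below both in 18 members without transgenic library 1, against 40.8%, and in 22 without transgenic library 2, against 34.4%. Without wild-type library 1, both transgenic libraries were above the other wild-type library in 8 members, against 31.2%, and below it in 16, against 31.5%. Without wild-type library 2, they were above in 4 members, against 32.3%, and below in 11, against 33.3%. With fewer libraries the groups separate more easily. The median log2 fold change of the members was -0.083 with library totals unscaled, where 4 members with values near 0 changed sign, and -0.070 to -0.0090 when each library was left out. With the replicate number as a block, 0 genes and 0 members were called and the median was -0.04. Same-numbered libraries deviated from their group means with a correlation of -0.14 over genes. This rests on 2 pairs and cannot decide whether the numbers pair the libraries. A block with the numbers crossed, chosen after seeing the data, also called 0 genes. The causes of these shifts were not tested. With 2 libraries per group, differences as large as that between the transgenic libraries cannot be told from spread, and members of about 100 counts, such as CD68, TFEB and GLA, carry a counting error of 9.6% to 11.3% in their lowest library.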
